A study of Rattus norvegicus with 18 samples.

Results

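The autophagy machinery was followed in rat liver across birth as 37 named genes, from the kinase complex that starts an autophagosome to the lysosomal proteins that receive it. Members were found by the array platform's gene symbol, and the brightest transcript cluster (a probe set covering a whole gene) stood for each gene. Of the 37 genes 36 were measured, out of 18926 genes in the table; the selective receptor Sqstm1 had no transcript cluster under its symbol and was not analysed here. The liver samples came from Sprague Dawley rats, and 18 Affymetrix Rat Transcriptome 1.0 arrays carried them, 3 per age from separate dams. The youngest group was embryonic day 21 (E21, fetuses delivered by caesarean section and killed before their first breath). The others were 30 min, 4 h, 12 h, 1 day or 7 days old, counted from an observed birth. No genotype or drug differed between ages, and the sources give neither the number nor the sex of pups per sample. Every value below is a log2 intensity on the deposited scale, and every difference is a log2 difference between age means with its limma standard error (n = 3 arrays per age), the later age minus the earlier one. A gene passed when its Benjamini-Hochberg adjusted p over all 18926 genes was under 0.05, and p-values describe the spread between these dams only.

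Autophagy wraps a piece of cytoplasm in a growing double membrane, the autophagosome, and delivers it to the lysosome for breakdown into amino acids, sugars and lipids. The kinase complex around Ulk1 or Ulk2 starts the process, and the class III PI3-kinase complex marks the membrane with the lipid PI3P. Lipid transfer proteins feed the membrane, and conjugation enzymes attach ubiquitin-like ATG8 proteins such as LC3 to it. Birth cuts off the placental nutrient supply, and in newborn rodents autophagy is known to rise in several tissues during this fast. In newborn rat liver, glycogen is known to be taken into autophagic vacuoles and cleaved by the lysosomal acid glucosidase. Much of this control acts on proteins (phosphorylation, lipid attachment, turnover), which RNA arrays do not read.

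Correlations over all genes between arrays of one age were 0.987 to 0.994, but E21 replicate 1, 30 min replicate 3 and 4 h replicate 3 stood apart from the other arrays of their age for some members, and results that rest on them are given with and without them. On 7 days replicate 3 the 9 measured exocrine pancreas markers averaged 10.91, against 5.10 and 5.04 on the other 7 days arrays, and 2 of the 9 lay at or below the silent level on all 7 days arrays. That silent level, 6.72, is the highest reading of these pancreas genes on any array before 7 days, and serves as a rough floor, since no detection call was used. Hepatocyte markers averaged 17.33 to 17.49 at 7 days and 17.15 to 17.27 at E21, so the labelled tissue was borne out at both ends of the series. Of the 36 members, 30 lay above 6.72 on all 18 arrays and 2 (Map1lc3a and Tfeb) lay at or below it on all 18. Another 4 did so on some arrays (Atg10 on 17, Atg12 on 15, Stbd1 on 7 and Atg14 on 2).

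The machinery did not move as one block at any age. Over all ages, 20 of the 36 members (55.6%) passed the limma F test, against 31.3% of all genes. Among genes at or above the table's median level, 51.2% passed, close to the share of the members there (20 of 35). With 7 days replicates 1, 2 and 3 left out in turn, 11, 10 and 12 members passed the F test. At 30 min no member passed against E21 (0 higher and 0 lower), and neither did any other gene (0% higher and 0% lower). An unadjusted limma p under 0.05 was given to 4 of the 36 members and to 1392 of the 18926 genes, and 0 members passed with array weights. The 4 were Atg4c, Atg2b, Atg16l1 and Gabarap, with differences of 0.26 to 0.52. At 4 h against E21, 2 members were higher and 0 lower, where 2.91% of all genes were higher and 1.81% lower. At 12 h against E21, 4 were higher and 2 lower (3.86% and 2.08% of all genes), and at 1 day against E21, 2 were higher and 1 lower (3.37% and 1.71%). Without E21 replicate 2, 4 h replicate 1 or 4 h replicate 2 there were 0 calls at 4 h, and without E21 replicate 1 or 3 there was 1. At 1 day there was 1 call without E21 replicate 2 or 3 or 1 day replicate 3, and there were 5 without 1 day replicate 2. Array weights raised the calls over E21 to 4 at 4 h, 11 at 12 h and 5 at 1 day. All counts given for an altered fit, here and below, are of members alone. The share of all genes under the same setting is not set beside them, so they show no trait particular to the members. By 7 days 9 were higher and 7 lower than at E21, against 12.8% of all genes higher and 10.0% lower.

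Between successive ages, members passed at 12 h over 4 h and at 7 days over 1 day. At 4 h over 30 min, no member passed in limma (0.518% of all genes were higher and 0.465% lower), 3 of the 36 members and 2146 of all genes had an unadjusted p under 0.05, and 2 members passed with array weights; without 4 h replicate 3, 1 passed. At 12 h over 4 h, 5 members were higher and 3 lower (5.08% and 3.82% of all genes), and array weights raised these 8 calls to 15. At 1 day over 12 h, no member passed in limma (0.0106% of all genes higher and 0.0264% lower), 3 of the 36 members and 1213 of all genes had an unadjusted p under 0.05, and array weights gave 0. At 7 days over 1 day, 3 were higher and 5 lower (8.15% and 10.0% of all genes). Those 8 calls became 5 without 1 day replicate 1 or 2, 4 without 7 days replicate 1 or 2, and 3 without 7 days replicate 3. Comparisons that use the same age share its arrays, and the members' median difference stayed small throughout, for example 0.17 at 7 days over E21, where the median of all genes was 0.01. In bulk liver, fewer cells of a type and less RNA per cell cannot be told apart for any of these genes.

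**Figure D1:**
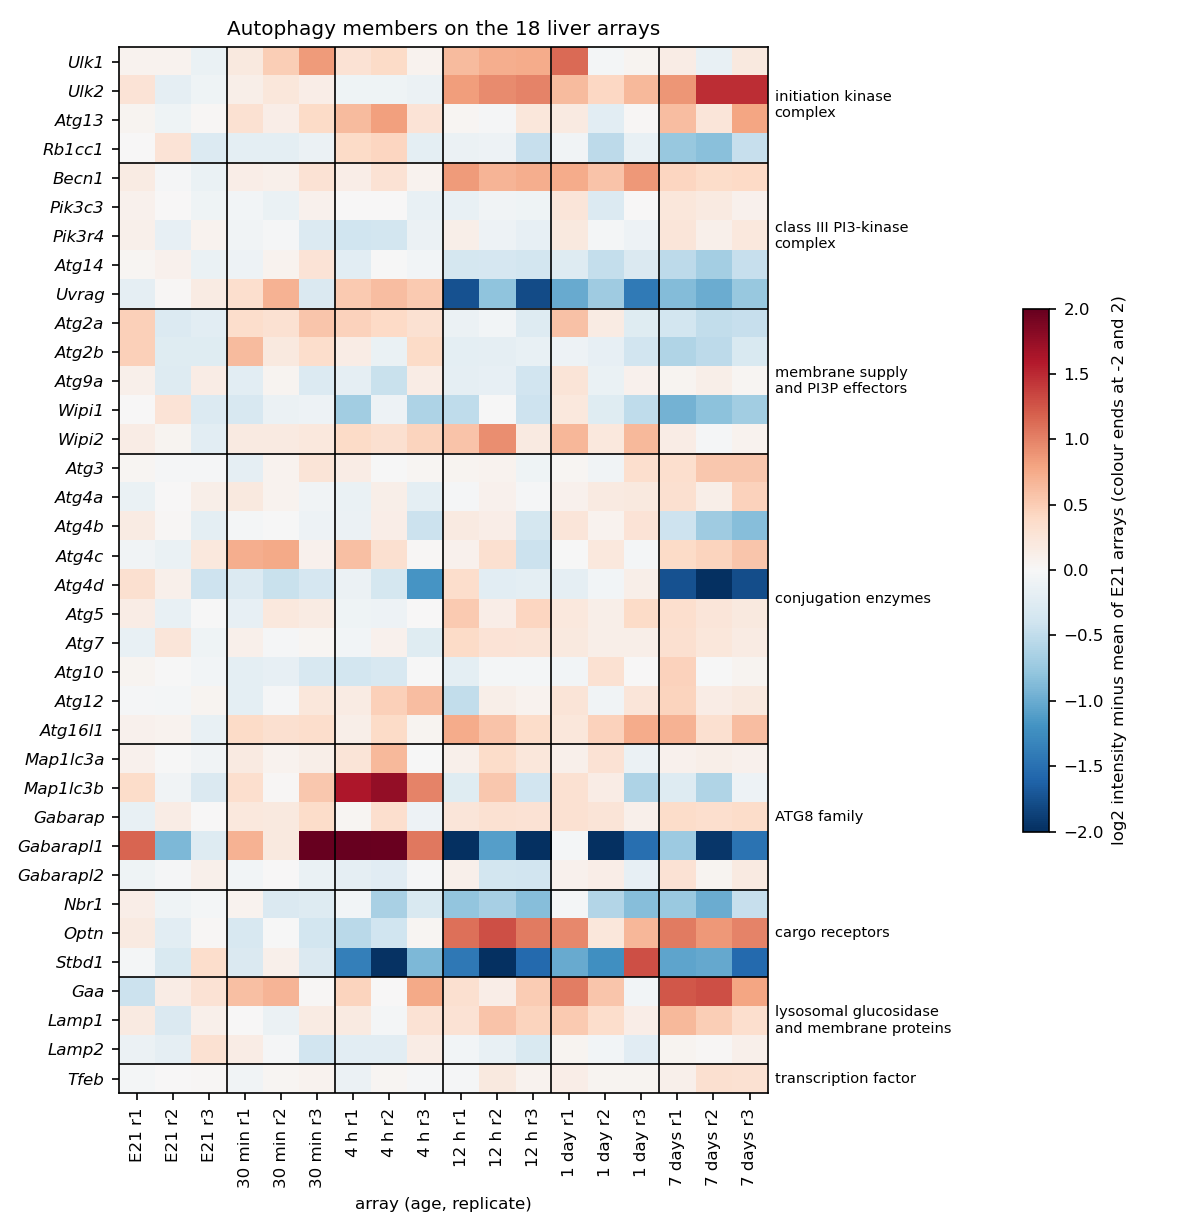
Each square is one array of the 36 measured autophagy genes (down the page, by role) and its colour is the log2 intensity minus the mean of that gene's E21 arrays, with ages running left to right from E21 to 7 days and 3 arrays per age. Gabarapl1 and Map1lc3b stand out high at 4 h, Uvrag low from 12 h, Ulk2, Becn1 and Optn high from 12 h, and Atg4d low at 7 days.

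**Figure D2:**
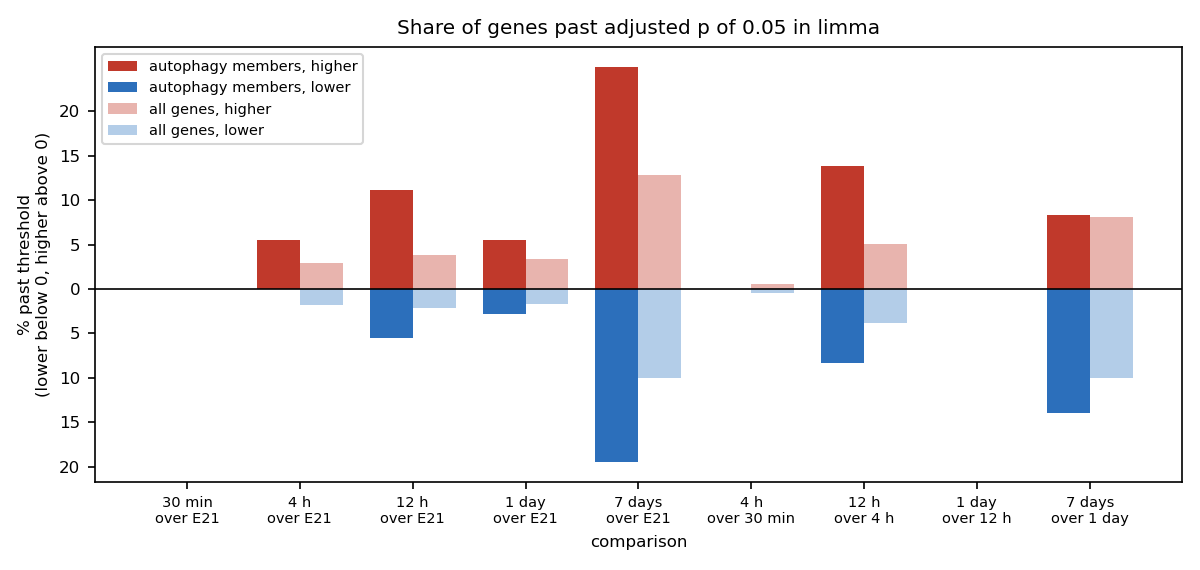
Bars show the percent of the 36 autophagy genes and of all 18926 genes past the limma threshold (adjusted p under 0.05), higher and lower, in each of the 9 comparisons. All bars start at 0, with lower genes drawn downward; at 30 min over E21 both gene groups are at 0%, and at 7 days over E21 the members reached 9 higher and 7 lower of 36.

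The initiation kinase complex holds the kinases Ulk1 and Ulk2, Atg13, which binds them, and Rb1cc1 (FIP200), the scaffold of the complex. Ulk2 rose at 12 h and again at 7 days, and passed 5 comparisons. It read 9.16, 9.27 and 9.32 at 12 h, against 8.24, 8.24 and 8.21 at 4 h, with no overlap. The difference was 1.02 ± 0.15 (adjusted p = 0.000516), or 2.03-fold. Against the E21 arrays (8.59, 8.15 and 8.23), Ulk2 was higher by 0.93 ± 0.15 (adjusted p = 0.00153) at 12 h and by 0.57 ± 0.15 (adjusted p = 0.0363) at 1 day. Omitting any one of E21 replicates 2 and 3 and 1 day replicates 1 and 3 ended the 1 day call (0.48 to 0.53, adjusted p = 0.113 to 0.164). A further step followed at 7 days, where Ulk2 read 9.20, 9.80 and 9.80, against 8.96, 8.74 and 8.97 at 1 day, a difference of 0.71 ± 0.15 (adjusted p = 0.00338). Set against E21 the 7 days level was higher by 1.27 ± 0.15 (adjusted p = 1.90e-05). All of Ulk2's calls except that at 1 day held whichever array was left out.

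Atg13 had a short peak at 4 h and a second high level at 7 days. It read 10.90, 11.08 and 10.54 at 4 h, against 10.33, 10.18 and 10.29 at E21, where the third 4 h array lay nearest to E21, and the difference was 0.57 ± 0.16 (adjusted p = 0.049). This call depended on each of E21 replicates 1, 2 and 3 and 4 h replicates 1 and 2 (0.45 to 0.61, adjusted p = 0.0777 to 0.224 when 1 of them was left out). The 7 days arrays read 10.88, 10.50 and 11.05, against 10.45, 10.05 and 10.28 at 1 day, a difference of 0.55 ± 0.16 (adjusted p = 0.0228). With any one of 1 day replicates 2 and 3 and 7 days replicates 1 and 3 removed, Atg13 no longer passed (0.43 to 0.56, adjusted p = 0.0546 to 0.105). Over E21 the 7 days difference was 0.55 ± 0.16 (adjusted p = 0.0193). The call did not hold when any one of E21 replicate 2 and 7 days replicates 1 and 3 was left out (0.43 to 0.51, adjusted p = 0.0616 to 0.0949). The highest 7 days reading, 11.05, is that of replicate 3, the array with raised exocrine pancreas markers. Rb1cc1 went the other way and fell at 7 days, to 9.94, 9.87 and 10.23, against 10.70, 10.98 and 10.42 at E21, a difference of −0.68 ± 0.18 (adjusted p = 0.0136). Omitting any one of E21 replicate 2 and 7 days replicate 2 ended the call (−0.61 to −0.55, adjusted p = 0.0601 to 0.0719). Without 4 h replicate 3, both Atg13 (−0.64, adjusted p = 0.0175) and Rb1cc1 (−0.63, adjusted p = 0.0357) also passed as lower at 12 h over 4 h, where with all arrays they did not (−0.50 ± 0.16 and −0.43 ± 0.18). That array holds the lowest 4 h reading of both genes, so leaving it out had to widen these falls. Those passes are therefore no separate support. Ulk1, the better known of the kinase pair, passed nowhere: its age means spanned 0.70, with one 1 day array at 9.98 and the other 1 day arrays at 8.81 and 8.90.

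Among the class III PI3-kinase genes, the shared catalytic and regulatory subunits Pik3c3 and Pik3r4 passed nowhere. Of the other 3 subunits, Becn1 was higher than at E21 from 12 h, Uvrag was lower from 12 h, and Atg14 was lower at 7 days. Becn1 (Beclin 1), a core subunit of the complex, rose at 12 h. It read 7.89, 7.72 and 7.75 at 12 h, against 7.17, 7.32 and 7.11 at 4 h, a difference of 0.59 ± 0.10 (adjusted p = 0.00208). Over E21 (7.19, 7.01 and 6.89) the difference was 0.75 ± 0.10 (adjusted p = 0.000514) at 12 h and 0.73 ± 0.10 (adjusted p = 0.000923) at 1 day, with no overlap of arrays and no call lost when any array was left out. At 7 days Becn1 stood between both levels, 7.47, 7.39 and 7.42, against 7.78, 7.61 and 7.89 at 1 day. It was lower than at 1 day, with a difference of −0.33 ± 0.10 (adjusted p = 0.0345). This call depended on each of 1 day replicates 1 and 3 and 7 days replicates 1, 2 and 3 (−0.35 to −0.27, adjusted p = 0.0582 to 0.146 when 1 of them was left out). Becn1 was still higher than at E21, by 0.40 ± 0.10 (adjusted p = 0.0107). With E21 replicate 3 removed, Becn1 no longer passed (0.33 with adjusted p = 0.0523).

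Uvrag, which joins Becn1 in the endosomal form of the complex, had the largest fall at 12 h over 4 h after Gabarapl1. Its arrays read 9.73, 10.66 and 9.67 at 12 h, against 11.99, 12.08 and 11.98 at 4 h, with no overlap. The difference was −2.00 ± 0.26 (adjusted p = 0.000241), or 3.99-fold. Its highest age mean was that at 4 h (12.02, against 11.46 at E21), and this earlier rise over E21 did not pass. The E21 arrays lay at 11.28, 11.49 and 11.62, and against them Uvrag was lower, with differences of −1.44 ± 0.26 (adjusted p = 0.00374) at 12 h, −1.04 ± 0.26 (adjusted p = 0.0317) at 1 day and −0.87 ± 0.26 (adjusted p = 0.0248) at 7 days. Both 12 h calls held whichever array was left out. The 1 day call did not hold when any one of E21 replicates 2 and 3 and 1 day replicates 1 and 3 was left out (−1.06 to −0.85, adjusted p = 0.0805 to 0.128). Omitting any one of E21 replicates 2 and 3 and 7 days replicates 1 and 2 ended the 7 days call (−0.87 to −0.79, adjusted p = 0.0588 to 0.0841). Atg14, which takes Uvrag's place in the form that acts at the start of autophagosome formation, was dim at every age. It read 6.68, 6.54 and 6.75 at 7 days, against 7.24, 7.30 and 7.09 at E21, lower with a fitted difference of −0.55 ± 0.11 (adjusted p = 0.00151). Since 2 of the 7 days arrays were at or below the silent level, the difference is given as a size of at least 0.48.

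Membrane supply rests on the lipid transfer proteins Atg2a and Atg2b and the scramblase Atg9a, and on Wipi1 and Wipi2, which bind PI3P. Both Atg2 genes had their highest mean at 30 min and their lowest at 7 days. Atg2a read 8.83, 8.70 and 8.74 at 7 days, against 9.78, 9.35 and 8.95 at 1 day, a difference of −0.61 ± 0.19 (adjusted p = 0.0413). This call depended on each of 1 day replicates 1 and 2 and 7 days replicates 1, 2 and 3 (−0.64 to −0.40, adjusted p = 0.0681 to 0.187 when 1 of them was left out). Atg2b passed the F test (adjusted p = 0.0208) but no single comparison, and its arrays read 10.27, 9.55 and 9.55 at E21, 10.43, 9.99 and 10.14 at 30 min and 9.20, 9.28 and 9.49 at 7 days. The first E21 array was high for both genes, and without E21 replicate 3 the 7 days difference of Atg2b passed (−0.59, adjusted p = 0.0496). Replicate 3 is its lowest E21 reading, so leaving it out had to widen that difference. Wipi1 fell at 7 days, to 7.93, 8.06 and 8.17, against 8.89, 9.14 and 8.60 at E21, a difference of −0.82 ± 0.20 (adjusted p = 0.00727). Against 1 day (9.09, 8.63 and 8.37) it was lower, with a difference of −0.64 ± 0.20 (adjusted p = 0.0358). With any one of 1 day replicates 1 and 2 and 7 days replicates 1, 2 and 3 removed, Wipi1 no longer passed (−0.70 to −0.45, adjusted p = 0.0534 to 0.16). Wipi2, its relative that recruits Atg16l1, also passed the F test alone (adjusted p = 0.0455), with its highest mean at 12 h (9.40 ± 0.37, SD) and its lowest at E21 (8.84 ± 0.19). Single arrays decided its comparisons: it passed at 12 h over E21 without 12 h replicate 3 (0.75, adjusted p = 0.0107), and without 1 day replicate 2 it passed at 1 day over E21 (0.66, adjusted p = 0.0379) and at 7 days over 1 day (−0.59, adjusted p = 0.0244). Those arrays hold its lowest 12 h and its lowest 1 day reading, so leaving them out had to widen these differences.

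The conjugation genes fall into those that serve the attachment of ATG8 proteins to lipid (Atg3, Atg5, Atg7, Atg10, Atg12 and Atg16l1) and the Atg4 proteases that trim ATG8 proteins beforehand and release them later. At 7 days over E21, of the 10 conjugation genes 2 were higher (Atg3 and Atg16l1) and 2 lower (Atg4b and Atg4d), where 12.8% of all genes were higher and 10.0% lower. Atg4d had the widest change of the proteases: 7.40, 6.74 and 7.37 at 7 days, against 8.96, 9.09 and 9.26 at 1 day and 9.46, 9.24 and 8.73 at E21. It was lower, with a difference of −1.93 ± 0.26 (adjusted p = 0.000115) against 1 day and −1.97 ± 0.26 (adjusted p = 6.22e-05) against E21, or 3.93-fold, and neither call depended on one array. Atg4b, regarded as the main LC3 protease in mammals, read 7.27, 6.98 and 6.83 at 7 days, against 7.93, 7.75 and 7.96 at 1 day and 7.86, 7.71 and 7.49 at E21. Its falls were −0.86 ± 0.16 (adjusted p = 0.00184) and −0.66 ± 0.16 (adjusted p = 0.00842), and both held whichever array was left out. The other proteases, Atg4a and Atg4c, passed nowhere, although Atg4c read 9.84, 9.88 and 9.20 at 30 min, against 9.04, 8.98 and 9.32 at E21 (0.52 ± 0.21, adjusted p = 0.565).

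Of the attachment genes, Atg3, which hands ATG8 proteins to the lipid, was higher at 7 days. It read 9.82, 10.01 and 10.01 at 7 days, against 9.52, 9.45 and 9.46 at E21, a difference of 0.47 ± 0.12 (adjusted p = 0.00966), with no overlap. Over 1 day (9.51, 9.41 and 9.81) the difference was 0.37 ± 0.12 (adjusted p = 0.0444). The call did not hold when any one of 1 day replicates 1 and 2 and 7 days replicates 2 and 3 was left out (0.28 to 0.34, adjusted p = 0.12 to 0.156). Atg16l1, which places the conjugation complex on the membrane, read 8.99, 8.83 and 8.62 at 12 h, against 8.34, 8.32 and 8.11 at E21, higher by 0.56 ± 0.14 (adjusted p = 0.0323). Omitting any one of E21 replicates 1, 2 and 3 and 12 h replicates 1 and 2 ended the call (0.47 to 0.60, adjusted p = 0.0526 to 0.145). At 7 days it read 8.96, 8.58 and 8.88 and was higher than at E21 by 0.55 ± 0.14 (adjusted p = 0.0117). This 7 days call depended on each of E21 replicate 3 and 7 days replicate 1 (0.47, adjusted p = 0.0507 to 0.0534 when 1 of them was left out). It also passed at 1 day over E21 without 1 day replicate 1 (0.60, adjusted p = 0.0444). This replicate is its lowest 1 day reading, so leaving it out had to widen the difference. Atg5 and Atg7, the E3 subunit and the E1-like enzyme, rose modestly at 12 h over 4 h and did not pass over all ages. Atg5 read 8.78, 8.40 and 8.69 at 12 h, against 8.17, 8.16 and 8.27 at 4 h (0.42 ± 0.12, adjusted p = 0.045). With any one of 4 h replicates 1, 2 and 3 and 12 h replicates 1 and 3 removed, Atg5 no longer passed (0.34 to 0.46, adjusted p = 0.0596 to 0.2). Atg7 read 7.81, 7.71 and 7.70 at 12 h, against 7.37, 7.52 and 7.20 at 4 h (0.38 ± 0.11, adjusted p = 0.0396). The call did not hold when any one of 4 h replicates 1 and 3 and 12 h replicates 1, 2 and 3 was left out (0.30 to 0.40, adjusted p = 0.0634 to 0.153). Atg10 and Atg12 lay at or below the silent level on most arrays, where a change could not be measured.

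The ATG8 family, the proteins that coat the autophagosome and bind its cargo receptors, held the member with the widest movement, Gabarapl1. Of its 5 genes, Gabarapl1 and Map1lc3b passed the F test (40%), near the shares of all genes (31.3%) and of genes at or above the table's median level (51.2%). Gabarapl1 read 9.35, 10.43 and 9.15 at 12 h, against 14.28, 13.51 and 12.58 at 4 h, and the arrays of both ages did not overlap. The difference was −3.82 ± 0.67 (adjusted p = 0.00212), or 14.1-fold. It was the widest span of age means among the 36 genes (3.82), and the fall held whichever array was left out. Before that, the values were uneven: 14.28, 13.51 and 12.58 at 4 h, against 12.70, 10.63 and 11.27 at E21, so that the first E21 array lay above the third 4 h array. The 4 h difference from E21 was 1.93 ± 0.67 (adjusted p = 0.121) and did not pass with all arrays. It passed with array weights (2.53, adjusted p = 0.0117) and without the 3 uneven arrays (2.95, adjusted p = 0.0124). Those arrays were picked for standing apart in these data, and include the highest E21 and the lowest 4 h reading of Gabarapl1. Leaving them out therefore had to widen the difference, and that pass is no separate support. At 30 min the third array, at 13.74, was already in the 4 h range, and the other 30 min arrays, at 12.23 and 11.72, were not.

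Map1lc3b, the LC3 gene most used to mark autophagosomes, also had its highest mean at 4 h. It read 9.98, 10.13 and 9.35 at 4 h, against 8.73, 8.29 and 8.07 at E21, with no overlap. That was higher by 1.46 ± 0.29 (adjusted p = 0.011), or 2.74-fold. Omitting any one of E21 replicate 2 and 4 h replicates 1 and 2 ended the call (1.30 to 1.42, adjusted p = 0.0516 to 0.0665). Without the 3 uneven arrays together the difference was 1.87, adjusted p = 0.00426. They again include the highest E21 and the lowest 4 h reading, so that the wider difference follows from the choice of arrays. Against 30 min (8.70, 8.38 and 8.90) the 4 h difference was 1.16 ± 0.29 (adjusted p = 0.0776), and it passed without 4 h replicate 3 (1.39, adjusted p = 0.0287). Here too the lowest 4 h reading was left out, which had to widen the difference. By 12 h the arrays read 8.12, 8.90 and 7.98, lower than at 4 h, with a difference of −1.49 ± 0.29 (adjusted p = 0.00455), a fall that held whichever array was left out. With the replicate number as a block in a fit of those ages alone, a setting chosen after the data were seen, 0 of the 2 calls at 4 h over E21 were left (Map1lc3b adjusted p = 0.0711), and 5 members passed at 12 h over 4 h, against 8 without it, with Atg5, Atg7 and Becn1 the ones lost. Neither gene passed against E21 at 12 h, 1 day or 7 days.

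The remaining ATG8 genes did not pass at 4 h. Gabarap read 11.20, 11.17 and 11.19 at 7 days, against 10.68, 10.98 and 10.84 at E21, higher by 0.36 ± 0.11 (adjusted p = 0.0298). This call depended on each of E21 replicates 1 and 3 and 7 days replicates 1, 2 and 3 (0.28 to 0.37, adjusted p = 0.0641 to 0.134 when 1 of them was left out). Over all ages Gabarap did not pass the F test (adjusted p = 0.135). Gabarapl2, measured by 2 transcript clusters of which the brighter was used, had age means within 0.39 of each other and passed nowhere. Map1lc3a never left the silent level, and a change in it could not be measured.

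**Figure D3:**
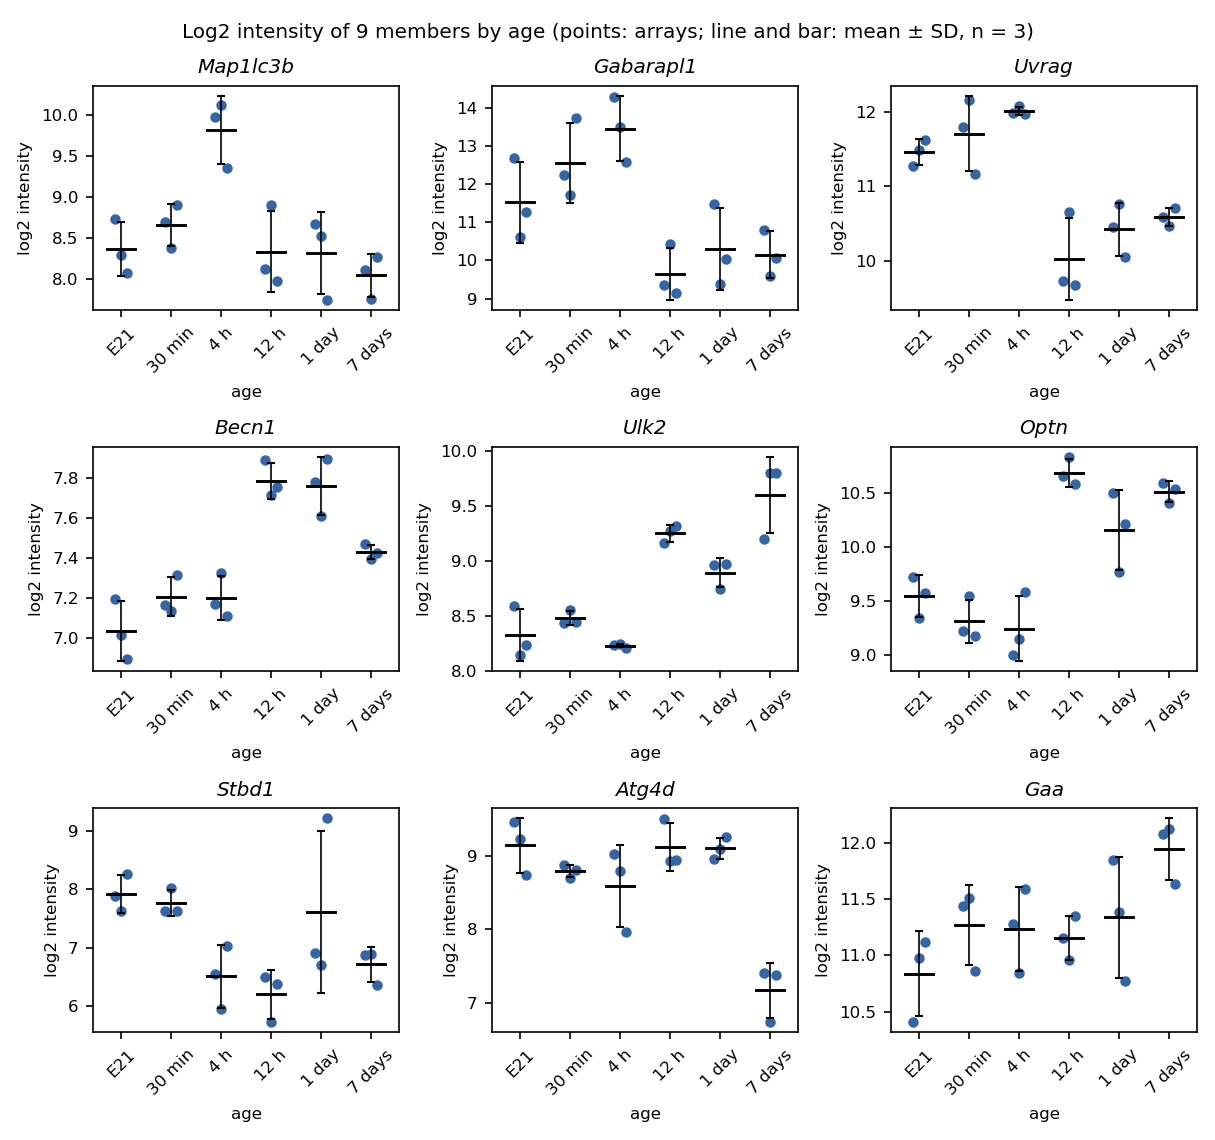
Log2 intensity of 9 members by age, with one point per array (replicates 1 to 3 from left to right within an age) a line at the mean and a bar of 1 SD either way (n = 3). Map1lc3b and Gabarapl1 peak at 4 h and are low at 12 h, Uvrag drops between the same ages, Ulk2, Becn1 and Optn are higher from 12 h, and Atg4d is lowest at 7 days.

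Promoters of the members that fell together between 4 h and 12 h (Gabarapl1, Map1lc3b and Uvrag), and of Gaa and Lamp1, classic lysosomal genes with the letters known from TFEB sites, are shown because TFEB, FOXO proteins and CREB are known to act on autophagy genes. They are RefSeq sequences of build GRCr8, 300 bases each, from 250 bases before the transcript start to 50 after, 5′ to 3′ on the gene's own strand. Map1lc3b lies at chr19:66574345-66574644 (plus strand), Gabarapl1 at chr4:164666082-164666381 (plus strand) and Uvrag at chr1:162854299-162854598 (minus strand). Gaa lies at chr10:105028105-105028404 (plus strand) and Lamp1 at chr16:83075014-83075313 (minus strand). Capitals mark the letters CACGTG (the E-box within TFEB sites, its own reverse) and TGACGT or its reverse ACGTCA (part of a cAMP response element); TGTTTAC or its reverse GTAAACA (a FOXO site) was searched as well, on both strands, and no matches overlapped.
Map1lc3b: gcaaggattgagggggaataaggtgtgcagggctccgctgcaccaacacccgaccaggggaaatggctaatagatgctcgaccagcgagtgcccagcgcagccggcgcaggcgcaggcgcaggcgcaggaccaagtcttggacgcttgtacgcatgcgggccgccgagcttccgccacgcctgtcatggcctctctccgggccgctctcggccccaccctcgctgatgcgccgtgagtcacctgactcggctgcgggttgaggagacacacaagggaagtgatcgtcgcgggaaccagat
Gabarapl1: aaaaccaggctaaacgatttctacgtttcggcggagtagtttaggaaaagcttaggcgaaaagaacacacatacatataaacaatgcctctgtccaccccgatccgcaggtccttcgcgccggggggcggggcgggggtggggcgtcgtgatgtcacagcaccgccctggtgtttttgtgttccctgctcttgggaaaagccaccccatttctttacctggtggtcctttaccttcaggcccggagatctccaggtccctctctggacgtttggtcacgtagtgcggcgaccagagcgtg
Uvrag: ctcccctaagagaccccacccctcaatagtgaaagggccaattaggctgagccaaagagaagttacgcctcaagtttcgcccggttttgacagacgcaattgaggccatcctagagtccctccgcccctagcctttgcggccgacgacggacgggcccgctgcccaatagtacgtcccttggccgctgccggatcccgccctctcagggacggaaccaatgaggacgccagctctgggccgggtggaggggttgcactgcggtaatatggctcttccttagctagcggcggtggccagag
Gaa: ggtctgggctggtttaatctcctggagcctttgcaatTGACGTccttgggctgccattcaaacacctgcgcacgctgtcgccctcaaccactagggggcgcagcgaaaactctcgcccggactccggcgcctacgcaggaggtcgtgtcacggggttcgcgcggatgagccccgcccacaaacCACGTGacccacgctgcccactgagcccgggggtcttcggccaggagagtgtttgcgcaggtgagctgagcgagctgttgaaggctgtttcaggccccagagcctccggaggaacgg
Lamp1: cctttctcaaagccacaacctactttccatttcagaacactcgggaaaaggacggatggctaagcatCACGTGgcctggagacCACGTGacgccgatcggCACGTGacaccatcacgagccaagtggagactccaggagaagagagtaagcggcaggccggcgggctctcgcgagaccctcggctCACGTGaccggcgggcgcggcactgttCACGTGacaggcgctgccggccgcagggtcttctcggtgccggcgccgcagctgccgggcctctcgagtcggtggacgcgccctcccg

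Of the 36 members 32 had a promoter in the table. CACGTG was present in 5 of the 32 (15.6%; Atg14, Atg3, Atg5, Gaa and Lamp1), against 6.42% of all 33469 promoters of the same length. TGACGT was present in 6 of the 32 (18.8%; Atg10, Atg4a, Atg5, Gaa, Gabarapl2 and Ulk2), against 7.94% of all promoters, and TGTTTAC in 0 of the 32, against 3.78%. Lamp1 held CACGTG 5 times, beginning 183, 167, 150, 65 and 38 bases before its start, and Gaa held it once, 67 bases before its start, with TGACGT 213 bases before. Map1lc3b, Gabarapl1 and Uvrag held none of the searched letters in these windows, which says nothing of sites elsewhere in those genes. Lamp1 and Gaa passed at 7 days over E21 alone, Gabarapl1 at 12 h over 4 h alone, and Map1lc3b and Uvrag there and elsewhere. Of the other members with CACGTG, Atg3 was higher and Atg14 lower at 7 days over E21, and Atg5 passed at 12 h over 4 h alone. Whether these letters go with the timing was not tested. These matches describe letters and no binding was measured.

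Selective receptors link cargo to ATG8 proteins, and the measured ones changed in different directions. Optn (optineurin), a receptor for ubiquitin-tagged cargo such as damaged mitochondria, rose at 12 h. It read 10.65, 10.83 and 10.58 at 12 h, against 9.0, 9.15 and 9.58 at 4 h, with no overlap. The difference was 1.45 ± 0.18 (adjusted p = 0.000168), or 2.72-fold. Over E21 (9.73, 9.34 and 9.57) it was higher by 1.14 ± 0.18 (adjusted p = 0.00156) at 12 h and by 0.97 ± 0.18 (adjusted p = 0.00121) at 7 days (10.59, 10.41 and 10.54), and no Optn call was lost when any array was left out. At 1 day the arrays read 10.50, 9.77 and 10.22, the second one close to E21, and the difference over E21 was 0.61 ± 0.18 (adjusted p = 0.0674), which passed without 1 day replicate 2 (0.81, adjusted p = 0.0183). Leaving out this lowest 1 day reading had to widen the difference. Nbr1, a receptor for ubiquitin-tagged proteins and peroxisomes, was lower than at E21: 13.05, 13.17 and 12.99 at 12 h and 13.11, 12.86 and 13.38 at 7 days, against 13.97, 13.75 and 13.80 at E21. The difference was −0.77 ± 0.20 (adjusted p = 0.0296) at 12 h. With any one of E21 replicates 1, 2 and 3 and 12 h replicates 1, 2 and 3 removed, Nbr1 no longer passed (−0.82 to −0.71, adjusted p = 0.0613 to 0.0944). At 7 days it was −0.73 ± 0.20 (adjusted p = 0.014). The 7 days call did not hold when any one of E21 replicate 1 and 7 days replicate 2 was left out (−0.66 to −0.60, adjusted p = 0.0563 to 0.0731). At 1 day Nbr1 passed without 1 day replicate 1 (−0.72, adjusted p = 0.0496), its highest 1 day reading, so that leaving it out had to widen the fall.

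Stbd1, a glycogen-binding protein proposed as the receptor that carries glycogen to the autophagosome, had its highest mean at E21. It read 6.5, 5.72 and 6.37 at 12 h and 6.55, 5.95 and 7.02 at 4 h, against 7.89, 7.62 and 8.27 at E21, with no overlap of either age with E21. It passed the F test (adjusted p = 0.0361) but no single comparison: the 4 h difference from E21 was −1.42 ± 0.49 (adjusted p = 0.121) and the 12 h difference −1.73 ± 0.49 (adjusted p = 0.0501). Since 2 of the 4 h arrays and all 12 h arrays were at or below the silent level, these sizes are bounds, at least 1.10 at 4 h and at least 1.21 at 12 h. One 1 day array, at 9.22, was the highest of all 18, and the other 1 day arrays read 6.91 and 6.71.

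At the lysosomal end, Gaa, the acid alpha-glucosidase that cleaves glycogen inside lysosomes, and Lamp1, a membrane glycoprotein of lysosomes, were higher at 7 days only among the comparisons run. Gaa read 12.08, 12.13 and 11.63 at 7 days, against 10.41, 10.98 and 11.12 at E21, with no overlap. The difference was 1.11 ± 0.28 (adjusted p = 0.00833), or 2.16-fold. Over all ages Gaa did not pass the F test (adjusted p = 0.0777). Its arrays at 4 h read 11.27, 10.84 and 11.59, higher than E21 by 0.40 ± 0.28 (adjusted p = 0.539), which did not pass, and the arrays overlapped. Lamp1 read 13.71, 13.55 and 13.39 at 7 days, against 13.24, 12.76 and 13.17 at E21, higher by 0.49 ± 0.15 (adjusted p = 0.0236). Omitting any one of E21 replicate 2 and 7 days replicates 1 and 2 ended the call (0.35 to 0.49, adjusted p = 0.0623 to 0.128). Lamp2, needed in mice for autophagosomes to mature, had the smallest span of age means of any member (0.23, adjusted p = 0.861 in the F test). It read 16.70 to 17.39 over all arrays, in the upper range of the deposited scale that is not explained, where a change could be missed. Tfeb, a master regulator of lysosomal genes, stayed at or below the silent level on all 18 arrays, so its transcript gave no measurable change.

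In all, 12 members passed neither the F test nor any comparison, with spans of age means from 0.23 to 0.70. They were Ulk1, Pik3c3, Pik3r4, Atg9a, Atg4a, Atg4c, Atg10, Atg12, Map1lc3a, Gabarapl2, Lamp2 and Tfeb. Of these, 4 lay at or below the silent level on 15 or more arrays, and a change there could be missed.

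**Figure D4:**
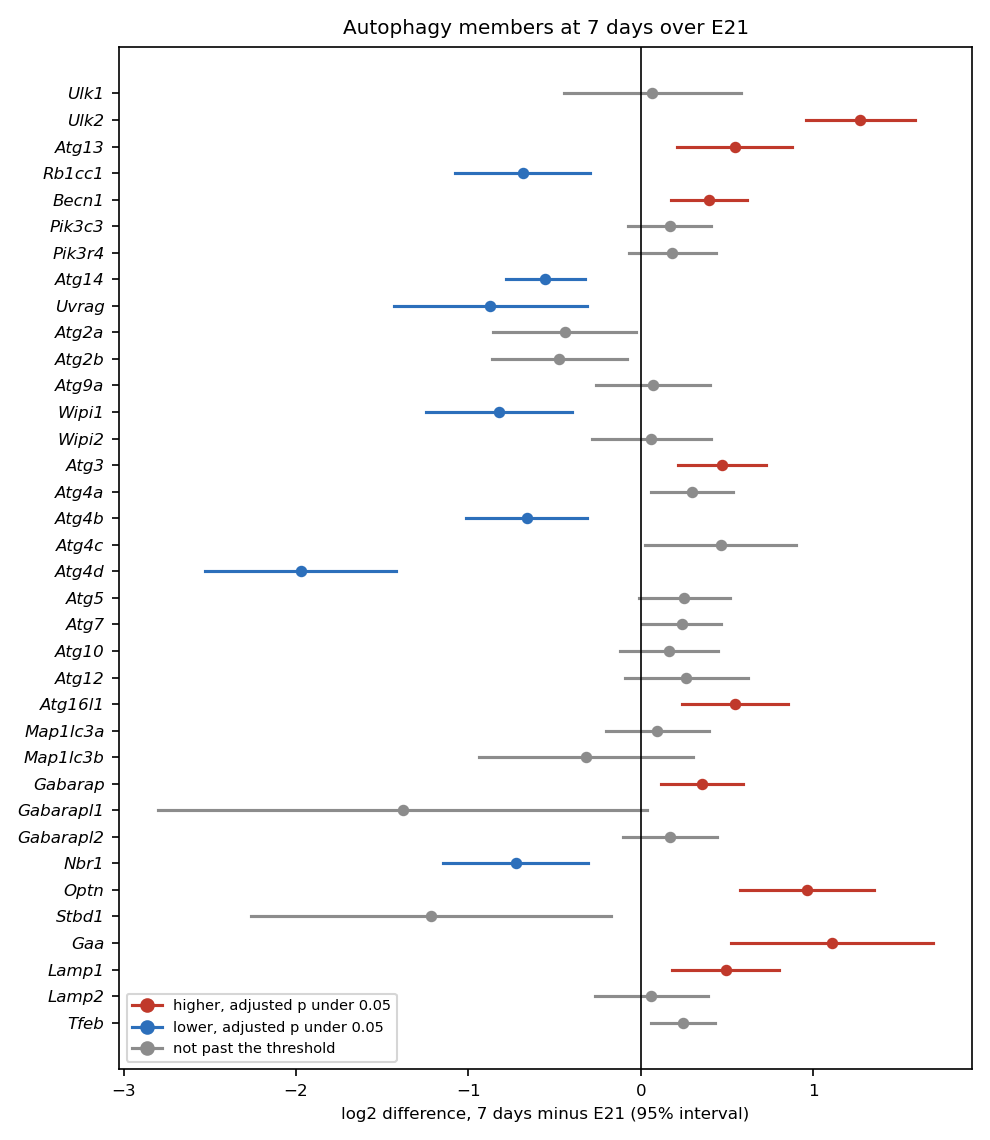
Log2 difference at 7 days over E21 for each of the 36 members, ordered by role, with the 95% interval of limma (n = 3 arrays per age) and members past the threshold marked by colour. The differences run from −1.97 for Atg4d to 1.27 for Ulk2, with 9 members past the threshold above 0 and 7 below.

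The 7 days differences stood beside a large change in the blood-forming cells that fetal rat liver harbours. Erythroid markers averaged 9.58 to 10.36 at 7 days, against 13.34 to 14.08 at E21, and 12 of the 13 measured were lower (0 higher). Of the 13, 1 lay at or below the silent level on all 7 days arrays. Hba-a1, the marker that was not lower, averaged 19.92 at 7 days and 19.93 at E21. Such values lie at the upper end of the deposited scale, where a change could be missed. Megakaryocyte and platelet markers averaged 7.17 to 7.38 at 7 days, against 10.93 to 11.35 at E21, with 6 of 6 lower. Neutrophil markers averaged 8.67 to 9.88 at 7 days, against 11.11 to 12.27 at E21, with 7 of 9 lower. Macrophage markers went the other way, 11.59 to 12.22 at 7 days against 9.84 to 10.22 at E21, with 9 of 11 higher, as did endothelial markers, 11.20 to 11.60 against 10.00 to 10.43, with 7 of 9 higher. On 7 days replicate 3 the exocrine pancreas markers also averaged 10.91, against 5.10 and 5.04 on the other 7 days arrays. The part of these cells, and of this pancreas signal, in the 7 days changes of Atg4d, Atg4b, Wipi1, Gaa and the other members was not tested. At 4 h the erythroid mean ran from 12.78 to 13.83, and the lowest value was that of 4 h replicate 3, the array that read lowest for Map1lc3b and Gabarapl1 at that age. At 12 h over 4 h, macrophage markers averaged 9.81 to 10.41 at 12 h, against 10.26 to 10.70 at 4 h, with a median difference of −0.44 and 0 of 11 past the threshold. Endothelial markers averaged 10.06 to 10.65 at 12 h, against 10.67 to 10.74 at 4 h, with a median difference of −0.43 and 1 of 9 lower. Stellate markers averaged 8.62 to 8.78 at 12 h, against 8.74 to 9.47 at 4 h, with a median difference of −0.61 and 1 of 8 higher. Their part in the falls of Gabarapl1, Map1lc3b and Uvrag was not tested.

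Other genes of the pathway, grouped in lists, showed their own timing. Their calls were not checked under the altered fits, which were followed for the members alone. Of 13 transcription factor genes known to act on autophagy genes, 2 were higher and 1 lower at 4 h over E21, where all genes gave 2.91% and 1.81%. Ppargc1a, a coactivator of fasting genes, was higher at 4 h by 3.32 ± 0.57 (adjusted p = 0.00446) and lower at 12 h over 4 h, with a difference of −4.85 ± 0.57 (adjusted p = 9.31e-05). Foxo1, a FOXO factor held back by insulin, was higher at 4 h by 0.99 ± 0.13 (adjusted p = 0.000887) and lower at 12 h over 4 h, with a difference of −1.22 ± 0.13 (adjusted p = 3.03e-05). At 7 days over E21, Foxo3 was lower, with a difference of −1.86 ± 0.23 (adjusted p = 4.03e-05) and Tfe3, a relative of Tfeb, was higher by 0.58 ± 0.09 (adjusted p = 0.000185). Of 33 genes of mTORC1 and AMPK control, the nutrient sensors upstream of the Ulk kinases, 4 were higher and 0 lower at 4 h over E21 (2.91% and 1.81% of all genes), and 5 were higher and 5 lower at 12 h over 4 h (5.08% and 3.82%). Sesn1, a leucine-regulated mTORC1 inhibitor, was higher at 4 h by 1.08 ± 0.23 (adjusted p = 0.0164) and lower at 12 h over 4 h, with a difference of −2.67 ± 0.23 (adjusted p = 6.90e-06). Prkaa1, an AMPK catalytic subunit, did the same (0.88 ± 0.18 and −1.30 ± 0.18, adjusted p = 0.0118 and 0.000321), while Mlst8, an mTOR subunit, and Fnip2, a folliculin partner, were higher at 12 h over 4 h by 0.93 ± 0.11 (adjusted p = 0.000114) and 1.53 ± 0.22 (adjusted p = 0.000566).

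Among 16 further core autophagy genes, 2 were higher and 0 lower at 4 h over E21 (2.91% and 1.81% of all genes), and 3 were higher and 2 lower at 7 days, near the 12.8% and 10.0% of all genes. Tmem41b, a scramblase of the endoplasmic reticulum, was higher at 4 h by 1.87 ± 0.38 (adjusted p = 0.0127) and lower at 12 h over 4 h, with a difference of −2.06 ± 0.38 (adjusted p = 0.00322). Its arrays read 12.31, 13.06 and 11.44 at 4 h, against 9.84, 9.98 and 11.39 at E21. The third E21 array thus lay close to the lowest 4 h array. At 7 days over E21, Atg16l2 was higher by at least 0.05 (adjusted p = 4.61e-06). All its E21 arrays and 1 of its 7 days arrays were at or below the silent level, so it was barely above that level at 7 days. Wdr45b was higher by 0.55 ± 0.10 (adjusted p = 0.00103), and Sh3glb1 was lower, with a difference of −0.60 ± 0.13 (adjusted p = 0.00452). Of 10 other receptors, 0 were higher and 2 lower at 12 h over E21 (3.86% and 2.08% of all genes), and 2 were higher and 3 lower at 7 days (12.8% and 10.0%). Bnip3, a mitochondrial receptor induced by low oxygen, was lower at 12 h over 4 h, with a difference of −2.85 ± 0.42 (adjusted p = 0.000554). Its relative Bnip3l (Nix), known for clearing mitochondria from maturing red cells, was lower at 7 days over E21, with a difference of −1.46 ± 0.17 (adjusted p = 1.90e-05), beside the erythroid markers above. Tax1bp1, a receptor for ubiquitin-tagged aggregates, was lower at 7 days over E21, with a difference of −1.13 ± 0.22 (adjusted p = 0.00142), and Fundc1, another mitochondrial receptor, was higher by 0.46 ± 0.10 (adjusted p = 0.00295).

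Of 31 measured lysosomal hydrolases and membrane proteins, 3 were higher and 3 lower at 12 h over E21 (3.86% and 2.08% of all genes), and 5 were higher and 1 lower at 1 day (3.37% and 1.71%). At 7 days over E21, 9 were higher and 0 lower, where 12.8% of all genes were higher and 10.0% lower. Hexa, a subunit of beta-hexosaminidase, was higher at 7 days over E21 by 1.24 ± 0.16 (adjusted p = 4.70e-05), and Smpd1, the acid sphingomyelinase, was higher at 12 h over 4 h by 1.67 ± 0.21 (adjusted p = 0.000155). Scarb2, the carrier of glucocerebrosidase, was higher at 12 h over E21 by 0.96 ± 0.19 (adjusted p = 0.0072), and Psap, the precursor of saposins, at 7 days by 0.67 ± 0.12 (adjusted p = 0.00105). Of 15 genes of the lysosomal proton pump, 3 were higher and 1 lower at 7 days over E21 (12.8% and 10.0% of all genes), among them Atp6v0c at 0.73 ± 0.14 (adjusted p = 0.00142), Atp6v1g1 at 0.51 ± 0.10 (adjusted p = 0.00156) and Atp6v0e1 at −0.54 ± 0.13 (adjusted p = 0.00639); Atp6v1b2 was higher at 4 h over E21 by 0.66 ± 0.13 (adjusted p = 0.00963). Macrophages are rich in lysosomes, and their markers were higher at 7 days as given above; their part in these counts was not tested. Glycogen metabolism is the cytosolic route to the same store that Gaa and Stbd1 serve. Of its 9 measured genes, 2 were lower than at E21 at 4 h, 4 at 12 h, 5 at 1 day and 4 at 7 days, and 0 were higher at these ages. The shares of all genes lower were 1.81%, 2.08%, 1.71% and 10.0%. Pygl, the liver glycogen phosphorylase, was lower at 1 day over E21, with a difference of −1.90 ± 0.26 (adjusted p = 0.000829), Gbe1, the branching enzyme, at −2.10 ± 0.47 (adjusted p = 0.0183), and Ugp2, which makes UDP-glucose, at −1.47 ± 0.34 (adjusted p = 0.0212). Phkb, a subunit of phosphorylase kinase, was lower by 4 h (−0.81 ± 0.13, adjusted p = 0.00355).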

How the data were processed

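RNA from 18 rat liver samples (6 ages, 3 dams each) had been hybridised to whole-transcript arrays. RMA and Affymetrix Expression Console 1.0 are named, without roles or order, in the submitters' processing notes, and no filter is stated in the sources used here. The deposited values are linear intensities per transcript cluster, from 4.24 to 999969 with array medians of 61.9 to 65.5, whose upper range the notes do not explain, so differences are those of the deposited scale. Of 24753 features 19837 had 1 gene symbol, 420 several and 4496 none, and the last 2 kinds were left out. The RefSeq gene table held the Entrez identifiers of 19230 features, and 1 symbol changed by it. The brightest feature stood for each of the 800 genes that had several, which left 18926 genes.

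The log2 of each intensity was taken with no constant added and no further normalization, and limma 3.58.1 (R 4.3.3) was fitted with a mean per age over all 18 arrays (12 residual and 3.05 prior degrees of freedom, two-sided tests, Benjamini-Hochberg adjustment over all 18926 genes). The code was tested on simulated data with known changes. With 3 arrays per age the number of arrays limits the precision. A difference written "at least" sets arrays below 6.72 to that level. Members past the F test or any of the 9 comparisons are described with their values, the others by range and count, and from each pathway list up to 4 genes past the threshold with the smallest F test p. The members, lists and tests were chosen with earlier results of these data known. No array column was left unused.

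The labels number the replicates without saying what a number shares. Deviations from the age means correlated between same-numbered arrays at 0.107 to 0.292 for E21 and 4 h and at 0.150 to 0.298 for 4 h and 12 h, and at least 1 pair was at or under 0.1 in each other comparison; between E21 and 12 h they were −0.142 to −0.031. A block for these 2 comparisons was added after the data were seen. Other alternatives were array weights, a filter on dim genes, the mean of a gene's transcript clusters, quantile normalization, a trended and robust prior, a replicate block over all ages, a fit of the compared ages alone, leaving out each array, and leaving out the 3 uneven arrays together. The uneven arrays were picked because they stood apart in these same values. Promoters came from RefSeq (GRCr8). Figures were drawn with matplotlib 3.10.9.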

Additional observations from a re-analysis of the deposited data

How the results depend on the processing

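Of 43 calls of single members, 20 were kept under every alternative run, 23 were lost under at least 1 and 0 reversed; 22 were kept whichever array was left out, and 82 of 258 such checks lost a call. By setting, array weights lost 1 of the 43, the dim gene filter and the mean of transcript clusters 0, the trended and robust prior 5, the replicate block over all ages 5, quantile normalization 7, leaving out the 3 uneven arrays 7 and fitting the compared ages alone 15. Array weights raised the counts of members called to 4 at 4 h over E21 (2 in the fit described), 11 at 12 h over E21 (6), 5 at 1 day over E21 (3), 2 at 4 h over 30 min (0) and 15 at 12 h over 4 h (8). These counts, and those that follow, are of members alone, without the share of all genes under the same setting. At 4 h over E21, 1 was called with the trended and robust prior, 1 with the replicate block, 0 with both ages alone and 0 with the replicate block in both ages alone, which also left 5 of 8 at 12 h over 4 h. Fitting both ages alone left 0 of 3 at 1 day over E21 and 3 of 8 at 7 days over 1 day. Leaving out the 3 uneven arrays gave 1 at 4 h over 30 min. Leaving out 1 array gave 0 to 2 at 4 h over E21, 1 to 5 at 1 day over E21, 0 to 1 at 4 h over 30 min, 3 to 6 at 7 days over 1 day and 10 to 20 in the F test (20), the fewest without a 7 days array. The replicate block over all ages moved no other count by over 1.5 times. Genes near the silent level, and any at the upper end of the unexplained scale, limit what could be seen to change. The cause of these shifts was not tested.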
